A study of Mus musculus with 12 samples.

Results

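SP4 cells, the most mature subset of CD4 single positive (SP) thymocytes, were compared with SP1 cells, the least mature one. The aim was to describe the change in gene expression over the whole span of SP maturation in the thymus. The paper proposes that cells may not move from the cortex to the medulla before the next subset, SP2. Of the 12 arrays of the series, 6 entered the comparison, 3 of SP4 and 3 of SP1, chosen by the subset named in their titles, and all 45037 probe sets were used. SP4 cells were Qa-2+6C10-CD69- and SP1 cells were Qa-2-6C10+CD69+, both sorted as CD4+CD8-CD25-NK1.1- cells from pooled thymi of untreated C57BL/6 mice aged 6 to 8 weeks, after CD8+ cells had been killed with antibody and complement. Gating out CD25+ and NK1.1+ cells was meant to leave out regulatory T cells and NKT cells. CD44 was not gated for the arrays, so that Qa-2+ mature T cells returning to the thymus were not kept out of SP4. The subsets between them, SP2 (Qa-2-6C10-CD69+) and SP3 (Qa-2-6C10-CD69-) with 3 arrays each, are used here only for the spread and for the course of named genes.

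Thymocytes that have passed positive selection as CD4 SP cells stay in the medulla for some days, lose the features of immature cells and gain the ability to respond, to migrate and to leave. Exit depends on S1pr1, a receptor for the lipid sphingosine-1-phosphate, whose transcription is driven by the factor Klf2. In the same period self-reactive cells are deleted, and cells gain class I molecules, among them Qa-2, by which SP4 was sorted.

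Each value is a linear intensity of one probe set, already corrected for background and normalized by the authors, and each gene is read by its brightest probe set. Values of single arrays are given in the order replicate 1, 2 and 3. Array medians lay between 30.5 and 32.8, and with 3 arrays a subset their number sets the precision. The largest spread among the 12 arrays was between replicate 3 and the others (first principal component, 56.8% of the variance), and the order from SP1 to SP4 came second (13.2%). A gene was called at an adjusted p under 0.05, from limma after Benjamini-Hochberg adjustment across the array, and log2 fold changes are SP4 minus SP1 of log2(intensity + 16) with their standard error (SE). Because arrays of the same number deviated together, a second fit, in which that number entered as a block, is given where it changed a call.

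The T cell identity of the arrays was read from the CD3 chains. Cd3e had intensities of 1030, 1193 and 1110 in the SP4 arrays, against 1268, 1323 and 1267 in the SP1 arrays. Cd3d averaged 5601 ± 708 in SP4 and 5990 ± 857 in SP1, and Cd4 averaged 650 ± 248 in SP4 and 765 ± 178 in SP1 (SD, n = 3 each). None of the 3 was called. Cd69, the protein of which parted the subsets, had similar transcript intensities of 980, 610 and 738 in SP4 and 868, 1112 and 473 in SP1 (log2 fold change -0.02 ± 0.33, SE), and the groups overlapped. The probe set shared by the Qa-2 genes H2-Q9 and H2-Q7 had 2561, 2119 and 1923 in SP4 and 549, 516 and 180 in SP1. That of H2-Q6 and H2-Q8 had 286, 321 and 391 in SP4 and 141, 162 and 149 in SP1.

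In SP4, 248 probe sets were higher by more than 2-fold (0.551% of 45037) and 57 were lower by more than 2-fold (0.127%). Read by gene and at any fold, 220 of 18193 genes were higher (1.21%) and 54 were lower (0.297%). Rises therefore outnumbered falls in both readings. With the replicate block, 389 probe sets were higher (0.864%) and 113 lower (0.251%) by more than 2-fold, and 756 genes were higher (4.16%) and 342 lower (1.88%) at any fold. The fit with the block called all 274 genes that the fit without it called. Single arrays moved these counts by over 1.5 times. Without SP1 replicate 1, 2 or 3, or without SP4 replicate 2, the genes higher numbered 102, 127, 124 and 117. The genes lower numbered 31, 20 and 26 without SP1 replicate 1, 2 or 3, and 18, 28 and 31 without SP4 replicate 1, 2 or 3. For probe sets over 2-fold, 151 were higher without SP1 replicate 1, and the lower ones numbered 28 when SP1 replicate 2 or SP4 replicate 1 was left out and 33 when SP1 replicate 3 was. Of the called genes, 145 had more than 1 probe set. They had 125 other probe sets with a mean of at least 100 in either subset. Of these, 124 moved the same way, but only 56 were also called in that direction. The genes were chosen by their call, so that the agreement describes them and no more.

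**Figure D1:**
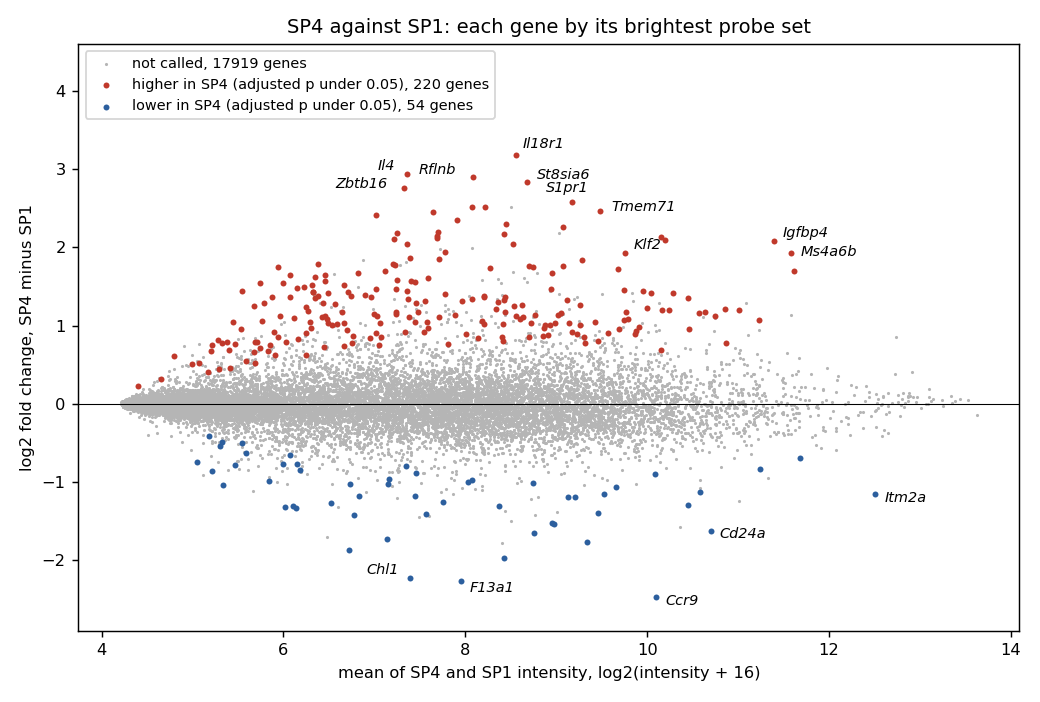
Each point is 1 of 18193 genes, with the mean intensity of SP4 and SP1 on the x axis (log2 of intensity + 16) and the log2 fold change, SP4 minus SP1, on the y axis. The 220 red genes were called higher in SP4 and the 54 blue genes lower, and Il18r1 at 3.18 and Ccr9 at -2.47 mark the ends among the named genes.

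Genes that carry a cell out of the thymus were among those that rose. Of 31 measured genes of egress and the naive T cell state, 12 were higher in SP4 and 0 lower, against 1.21% and 0.297% of all genes. The median log2 fold change of the list was 0.59, against -0.01 over all genes. With the block 15 were higher (4.16% of all genes) and 1 lower (1.88%), the chromatin factor Satb1. For 15 members all SP4 arrays lay above all SP1 arrays, and for 2 below (7.4% and 6.9% of all genes). S1pr1 had intensities of 1120, 845 and 933 in SP4, against 185, 178 and 96.4 in SP1. Its lowest SP4 array was far above its highest SP1 array (log2 fold change 2.58 ± 0.28, adjusted p = 0.00138). The second receptor of the same lipid in the list, S1pr4, had 427, 556 and 402 in SP4 and 133, 135 and 111 in SP1 (1.74 ± 0.17, adjusted p = 0.000558). The Krüppel-like factor Klf2 had 1043, 1345 and 1673 in SP4, against 283, 325 and 416 in SP1. In both subsets replicate 3 was the highest of its group, and the groups did not overlap (1.93 ± 0.29, adjusted p = 0.00854). Its relative Klf3 rose by 1.68 ± 0.24 (adjusted p = 0.00647), with 778, 577 and 877 in SP4 and 233, 213 and 209 in SP1. Foxo1, the forkhead factor that acts upstream of Klf2 in T cells, had 1271, 1042 and 1607 in SP4 and 530, 544 and 830 in SP1. The groups did not overlap, yet its adjusted p was 0.167 without the block and 0.00065 with it.

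Other members of the list that rose are membrane and signalling proteins of resting T cells. Igfbp4, a secreted binding protein of insulin-like growth factors, was among the brightest of them, with 4036, 4626 and 4361 in SP4 and 970, 1103 and 965 in SP1 (2.08 ± 0.17, adjusted p = 0.000174). The replicates of each group lay close together. Ms4a6b, a tetraspanning membrane protein, had 4992, 4601 and 4875 in SP4 and 1347, 1567 and 932 in SP1 (1.93 ± 0.22, adjusted p = 0.00178), and Cd55, which protects cells from complement, had 102, 66.3 and 90.8 in SP4 and 14.6, 20 and 14.8 in SP1 (1.64 ± 0.16, adjusted p = 0.000558). Itgb7, Ms4a4b, Rasgrp2, Dgka and Itga4 were the other members called, at 1.04 to 1.73. The interleukin-7 receptor Il7r was not called, with 2541, 2604 and 2457 in SP4 and 1491, 1787 and 2173 in SP1 (0.49 ± 0.27, adjusted p = 0.787). Ccr7, the receptor that draws SP cells into the medulla, had 2444, 2217 and 2671 in SP4 and 1395, 1318 and 2284 in SP1, with an adjusted p of 0.565 without the block and 0.043 with it. The number of members called was 8 without SP4 replicate 1, SP4 replicate 2, SP1 replicate 1 or SP1 replicate 3. Ms4a4b, Rasgrp2, Dgka and Itga4 were the members that could lose the call in this way (adjusted p up to 0.186, for Rasgrp2).

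Chemokine receptors moved in both directions. Of 38 measured chemokine and other guidance receptors, 5 were higher in SP4, S1pr1 and S1pr4 among them, and 1 was lower, Ccr9 (1.21% and 0.297% of all genes). This receptor of CCL25, a chemokine made by thymic epithelium, had 353, 398 and 220 in SP4, against 1516, 2189 and 1811 in SP1. It fell further than any other gene named here (-2.47 ± 0.31, adjusted p = 0.00299). Cxcr3, the receptor of interferon-induced chemokines, had 278, 313 and 157 in SP4 and 63, 67 and 37.2 in SP1 (1.86 ± 0.26, adjusted p = 0.00515), and Ccr2 had 114, 119 and 71.3 in SP4 and 31.3, 32.9 and 23.2 in SP1 (1.36 ± 0.18, adjusted p = 0.00365). For both, replicate 3 was the lowest array of its group. Sema4f rose by 0.74 ± 0.14 (adjusted p = 0.025), and its call ended without any one of the 6 SP4 and SP1 arrays (adjusted p between 0.0642 and 0.113). With the block 14 receptors were higher (4.16% of all genes) and 4 lower (1.88%). One of those lower was Ccr4, with 55.4, 60.4 and 20.1 in SP4 and 106, 155 and 64.1 in SP1 (-1.03, adjusted p = 0.557 without the block and 0.0011 with it). Cxcr4 had 1070, 1196 and 1964 in SP4 and 991, 874 and 1206 in SP1 and was not called in either fit.

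Among 40 integrins and other adhesion molecules, 4 were higher in SP4 and 2 lower (1.21% and 0.297% of all genes). Itgae, the CD103 chain that binds E-cadherin on epithelium, had 486, 458 and 496 in SP4, against 130, 96.7 and 23.3 in SP1. Its SP4 arrays agreed closely while its SP1 arrays spread over several fold (2.52 ± 0.43, adjusted p = 0.0162). The chain that it pairs with, Itgb7, had 1541, 1278 and 938 in SP4 and 358, 403 and 320 in SP1 (1.73 ± 0.20, adjusted p = 0.00176). Itga4, which pairs with Itgb7 too, had 746, 792 and 673 in SP4 and 390, 418 and 261 in SP1 (1.04 ± 0.19, adjusted p = 0.0221). So both alpha partners and the beta chain moved the same way. Itga6, a laminin receptor chain, rose by 1.11 ± 0.20 (adjusted p = 0.0207). Chl1, a relative of the neural adhesion molecule L1, had 31.8, 46 and 45.4 in SP4 and 168, 237 and 384 in SP1 (-2.22 ± 0.28, adjusted p = 0.00302), and the tetraspanin Cd81 had 387, 651 and 511 in SP4 and 987, 1164 and 1064 in SP1 (-1.06 ± 0.20, adjusted p = 0.0281). Without SP4 replicate 1, 2 or 3 the members higher numbered 1, 2 and 2, and without SP1 replicate 1 or 3 they numbered 2 each. Without SP4 replicate 1 or 3, any SP1 array or SP3 replicate 2, Chl1 was the 1 member lower. With the block, 13 members were higher (4.16% of all genes).

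**Figure D2:**
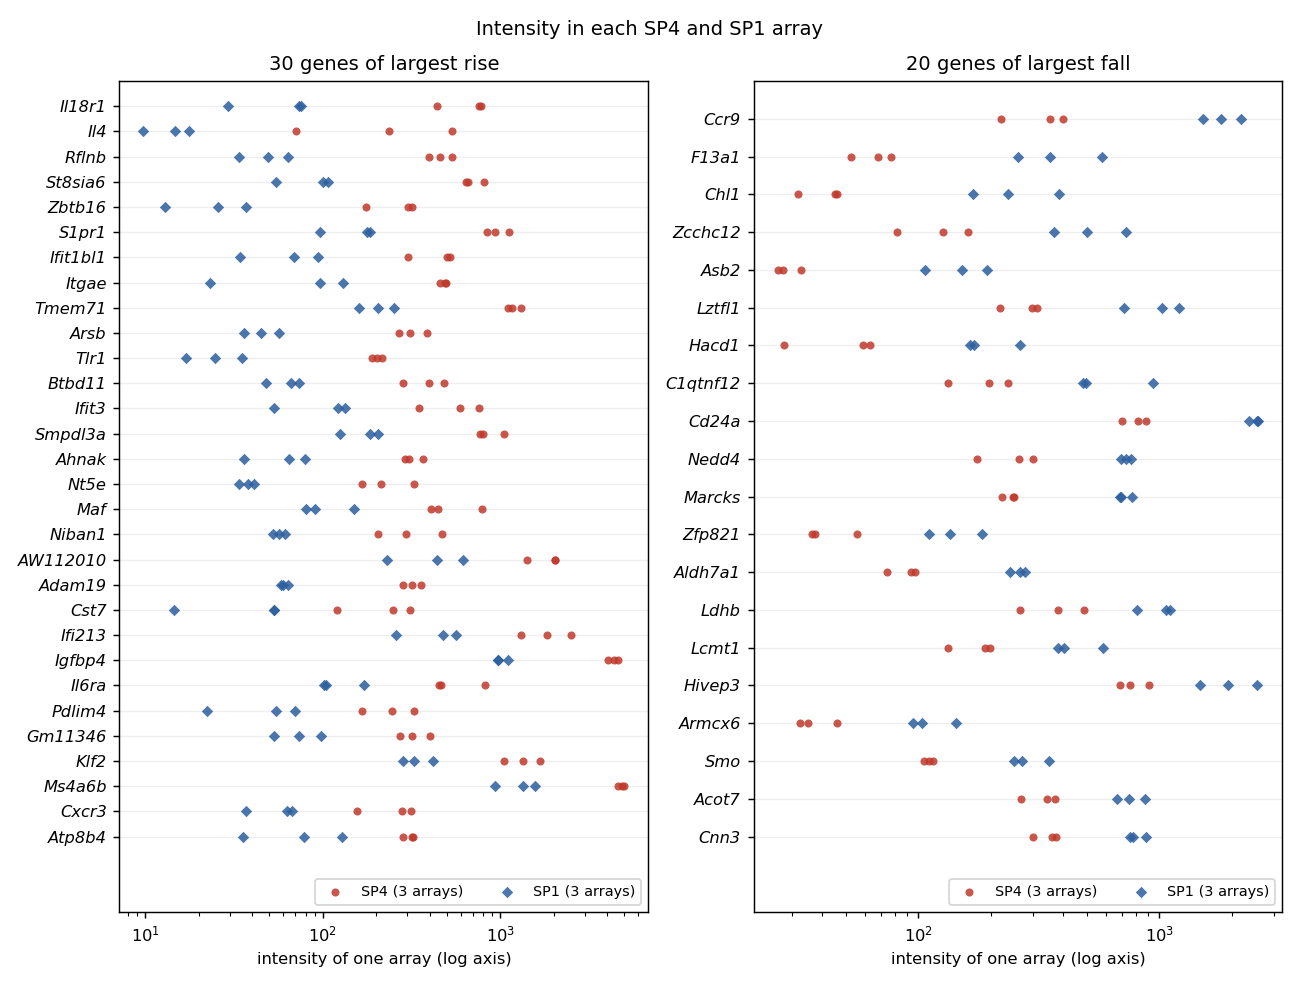
Each dot is the intensity of 1 array on a log axis, for the 30 genes of largest rise (left) and the 20 of largest fall (right), with SP4 arrays as red circles and SP1 arrays as blue diamonds. No gene has an SP4 array within the range of its SP1 arrays, and Il4 spreads most among the SP4 arrays, at 70.6, 237 and 536.

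All 3 SP4 arrays lay above all 3 SP1 arrays for each of the 30 named genes of largest rise and below them for each of the 20 of largest fall. Over all genes 7.4% lay above and 6.9% below in this way, and over the 7474 genes with a mean of at least 100 in either subset 10.7% and 8.2%. These 50 genes were chosen for their rank in the same comparison, so that the counts describe them and no more.

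The genes of largest rise also include enzymes and membrane proteins of other roles. St8sia6, which adds sialic acid to sugar chains, had 812, 640 and 657 in SP4 and 101, 107 and 54.7 in SP1 (2.83 ± 0.23, adjusted p = 0.000174). Tmem71, a membrane protein, had 1317, 1102 and 1160 in SP4 and 204, 253 and 160 in SP1 (2.47 ± 0.19, adjusted p = 0.000148). Both had adjusted p-values near the lowest of all named genes, as had Rflnb, which binds the actin linker filamin, with 532, 460 and 396 in SP4 and 49.4, 63.8 and 34 in SP1 (2.90 ± 0.21, adjusted p = 0.000125). The lysosomal sulfatase Arsb had 269, 312 and 387 in SP4 and 44.7, 56.6 and 36 in SP1 (2.45 ± 0.26, adjusted p = 0.000943). Smpdl3a, a phosphodiesterase related to acid sphingomyelinase, had 794, 1055 and 765 in SP4 and 185, 204 and 124 in SP1 (2.26 ± 0.20, adjusted p = 0.000254). Cathepsin S (Ctss) and cathepsin W (Ctsw) rose by 1.22 and 1.42, and were the 2 called of a list of 24 cathepsins, granzymes, their inhibitors and other lysosome or granule proteins (1.21% of all genes were higher, and 5 of the 24 with the block against 4.16%). Cst7, an inhibitor of cathepsins, rose by 2.11. Without SP4 replicate 2 or 3 Cst7 was not called (adjusted p up to 0.0731), and Ctss was not called without SP4 replicate 2, SP1 replicate 1 or SP1 replicate 3 (up to 0.0695). Tlr1, a receptor of bacterial lipopeptides, had 201, 190 and 216 in SP4 and 24.6, 35 and 16.9 in SP1 (2.42 ± 0.17, adjusted p = 0.000125).

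Of the remaining genes of largest rise, Btbd11 (2.34), Niban1 (2.15) and the metalloprotease Adam19 (2.12) were called with each array left out in turn. AW112010 (2.13), Pdlim4 (2.04), Gm11346 (1.95) and the putative lipid flippase Atp8b4 (1.86) were not. For AW112010 the arrays were SP4 replicate 2 or 3 and SP1 replicate 1 or 3, for Pdlim4 SP4 replicate 2, for Gm11346 SP4 replicate 2 and SP1 replicate 1 or 2, and for Atp8b4 SP4 replicate 2 and SP1 replicate 2, with adjusted p-values up to 0.0945.

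Of 31 measured cytokine receptors, 6 were higher in SP4 and 0 lower, against 1.21% and 0.297% of all genes. Il18r1, the binding chain of the interleukin-18 receptor, had 440, 763 and 777 in SP4, against 73.9, 75.8 and 29.4 in SP1. It had the largest fold of all named genes (3.18 ± 0.36, adjusted p = 0.00157), and the second chain of that receptor, Il18rap, rose by 1.42 ± 0.17 (adjusted p = 0.00201) at lower intensities of 129, 136 and 82.1 in SP4 and 39.1, 30.5 and 28.1 in SP1. Il2rb, shared by the receptors of interleukin-2 and interleukin-15, had 279, 322 and 220 in SP4 and 77, 95.6 and 64.2 in SP1 (1.61 ± 0.20, adjusted p = 0.00279). Its partner in regulatory T cells, Il2ra, had 49.9, 99.3 and 45.1 in SP4 and 80.6, 32.4 and 37.1 in SP1, and CD25+ cells had been gated out of both. Il17ra rose by 0.90 ± 0.14 (adjusted p = 0.0104), with 1300, 1179 and 1121 in SP4 and 612, 653 and 641 in SP1. Tgfbr2, the ligand-binding receptor of TGF-beta, had 2818, 2069 and 2157 in SP4 and 948, 1002 and 1250 in SP1 (1.12 ± 0.21, adjusted p = 0.0282), and Il6ra had 454, 466 and 817 in SP4 and 102, 104 and 172 in SP1 (2.05 ± 0.42, adjusted p = 0.0429). The arrays of Il6ra did not overlap, but its call ended without any one of 9 of the 12 arrays, all 6 of SP4 and SP1 included (adjusted p up to 0.179). The list had 3 members called without SP1 replicate 1, and 4 without SP4 replicate 1, SP4 replicate 2, SP1 replicate 2 or SP3 replicate 2. With the block 9 were called higher (4.16% of all genes) and 1 lower (1.88%).

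Downstream of these receptors, 1 of 21 JAK, STAT and SOCS genes rose and 1 fell (1.21% and 0.297% of all genes). Socs3, an inhibitor of signalling from receptors that use gp130, had 146, 154 and 169 in SP4 and 62.4, 52 and 36.2 in SP1 (1.40 ± 0.17, adjusted p = 0.00251). Socs1, an inhibitor of signalling from interferon and common gamma chain receptors, had 74.7, 97.1 and 72.8 in SP4 and 157, 166 and 196 in SP1 (-0.96 ± 0.19, adjusted p = 0.0382). The 2 inhibitors thus moved in opposite directions, though the call of Socs1 held only without SP3 replicate 2 or 3 among the arrays left out (adjusted p up to 0.146). With the block 5 genes of the list were higher (4.16% of all genes) and 1 lower (1.88%), Jak3, Stat2, Stat3 and Stat4 joining Socs3 at 0.65 to 0.75. In the Notch and TGF-beta pathways 3 of 30 genes rose (1.21% of all genes). Dtx1, a target of Notch, rose by 1.34 ± 0.25 (adjusted p = 0.0261), the ubiquitin ligase Smurf2, which acts on TGF-beta signalling, by 1.33 ± 0.18 (adjusted p = 0.00463), and the third was Tgfbr2. Without SP4 replicate 1, 2 or 3 or SP1 replicate 1 or 2, Smurf2 was the 1 called member, and without SP1 replicate 3 there were 2. Smad7, an inhibitor of the TGF-beta receptor, was called only with the block (1.61, adjusted p = 4.6e-05), as were 3 others of the 7 then higher (4.16% of all genes). In that fit 1 of the 30 was lower (1.88%).

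The interferon response genes formed the list of highest median, 0.78, and 45 of its 46 measured members were above 0. These are genes that cells switch on upon interferon, and that many cells keep at a low level without infection. In SP4, 17 were higher and 0 lower (1.21% and 0.297% of all genes), and 32 were higher with the block (4.16%). For 32 members all SP4 arrays lay above all SP1 arrays, against 7.4% of all genes. Ifit3, of a family of antiviral proteins induced by interferon, had 591, 754 and 346 in SP4, against 121, 134 and 53.3 in SP1. Replicate 3 was the lowest array in both groups, and the groups did not overlap (2.30 ± 0.35, adjusted p = 0.0083). Another 2 genes of the same kind outside the list stood among the 30 of largest rise, Ifit1bl1 with 523, 500 and 303 in SP4 and 69.2, 94.1 and 34 in SP1 (2.52 ± 0.31, adjusted p = 0.00235), and Ifi213 with 2490, 1829 and 1305 in SP4 and 476, 561 and 259 in SP1 (2.10 ± 0.31, adjusted p = 0.00739).

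The interferon-stimulated response element (ISRE), the DNA motif that interferon-activated factors bind, was looked for in the promoters of these genes. The promoters, from 250 bases before to 50 after a gene's start, came from RefSeq on GRCm38.p6, and 34 of the 46 genes matched. The motif was written as GAAA followed, after any 2 bases, by a second GAAA, and was searched on both strands. It was found for 19 of the 34 genes (55.9%), against 3.99% of 27025 genes with a promoter and 3.63% of the 14452 of them measured here. The 250 bases before the start are given for 4 genes that rose and hold it there, chosen to show a single, a spaced pair and overlapping pairs of the motif, with each match in capitals. They lie at chr19:34583279-34583528 on the plus strand (Ifit3), chr19:34601969-34602218 on the minus strand (Ifit1bl1, the farther upstream of 2 starts), chr5:120907526-120907775 on the minus strand (Oas1a) and chr11:48871421-48871670 on the minus strand (Irgm1).
Ifit3: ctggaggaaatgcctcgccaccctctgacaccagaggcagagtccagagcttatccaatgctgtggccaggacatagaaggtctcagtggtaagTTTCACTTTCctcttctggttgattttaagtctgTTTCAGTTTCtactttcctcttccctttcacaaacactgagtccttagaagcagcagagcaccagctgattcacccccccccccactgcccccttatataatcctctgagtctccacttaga
Ifit1bl1: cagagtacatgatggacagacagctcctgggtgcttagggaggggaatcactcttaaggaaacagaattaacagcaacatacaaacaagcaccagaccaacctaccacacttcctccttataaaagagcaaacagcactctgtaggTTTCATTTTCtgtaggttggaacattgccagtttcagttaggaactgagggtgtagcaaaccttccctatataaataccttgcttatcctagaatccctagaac
Oas1a: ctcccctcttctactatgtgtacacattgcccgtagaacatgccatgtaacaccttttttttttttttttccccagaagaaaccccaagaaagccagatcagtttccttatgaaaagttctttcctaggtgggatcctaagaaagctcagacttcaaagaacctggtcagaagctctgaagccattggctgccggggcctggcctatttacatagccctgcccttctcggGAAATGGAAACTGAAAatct
Irgm1: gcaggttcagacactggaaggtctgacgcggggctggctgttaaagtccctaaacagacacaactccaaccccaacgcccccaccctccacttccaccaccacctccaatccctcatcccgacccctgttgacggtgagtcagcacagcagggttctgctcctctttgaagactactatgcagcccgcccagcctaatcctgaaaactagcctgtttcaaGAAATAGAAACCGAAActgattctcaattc
In Ifit3 there are 2 separate copies on the opposite strand, in Ifit1bl1 there is 1, and in Oas1a and Irgm1 2 copies overlap close to the start. A match of letters is a description and does not show that a factor binds. The members with the motif had a median log2 fold change of 0.83 (6 of 19 called higher), and the 15 without it a median of 0.69 (6 of 15 called). So the motif did not part the members that rose from the others. The same search gave 0 of 26 genes of the egress list, 6.25% of the 16 matched genes of largest fall and 17.4% of the 23 of largest rise.

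The other motifs searched were CACCC (bound by Krüppel-like factors), GTAAACA (forkhead factors), TGACGTCA (CREB), AAAGGTCA (NR4A factors) and CAGCTG (E proteins), each on both strands. CACCC was in 80.8% of 26 egress and naive T cell genes, against 66.2% of measured genes with a promoter, and thus in most promoters of any kind. GTAAACA was in 0 of the 26. Among interferon response genes CACCC was in 73.5%, GTAAACA in 5.88%, TGACGTCA in 0, AAAGGTCA in 2.94% and CAGCTG in 14.7%, against 66.2%, 3.4%, 2.92%, 1.44% and 18.8% of measured genes with a promoter.

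Sensors, effectors and regulators of the interferon response were all among the 17. The RNA sensor Ifih1 (MDA5) had 632, 528 and 593 in SP4 and 261, 248 and 262 in SP1 (1.13 ± 0.17, adjusted p = 0.00788). Oas1a and Oas2, of the family that makes the activator of RNase L, rose by 1.37 ± 0.16 (adjusted p = 0.00201) and 1.21 ± 0.18 (adjusted p = 0.00795), Oas1a with 418, 512 and 520 in SP4 and 199, 186 and 148 in SP1. Ifit3, Ifih1, Oas1a and Oas2 were the 4 members whose calls held with each of the 12 arrays left out in turn. The GTPases Mx1, Gbp6, Irgm1 and Ifi47 rose by 0.78 to 1.08, and Samd9l, Ifit2, Parp14, Trim30a, Oasl2 and Mndal by 0.96 to 1.20. The transcription factor Irf7 had 588, 675 and 542 in SP4 and 304, 295 and 299 in SP1 (0.96 ± 0.17, adjusted p = 0.019), and Irf9, which carries the STAT complex to the ISRE, had 807, 772 and 789 in SP4 and 416, 432 and 520 in SP1 (0.78 ± 0.15, adjusted p = 0.0344). Usp18, a brake on the type I interferon receptor, rose by 1.02 ± 0.20 (adjusted p = 0.0344). A pair of shared probe sets moved the same way, that of the GTPases Tgtp2 and Tgtp1 with 2789, 2453 and 2041 in SP4 and 691, 872 and 466 in SP1 (1.85 ± 0.23, adjusted p = 0.00269), and that of Gm4070 and Gvin1 with 534, 367 and 383 in SP4 and 107, 119 and 36.5 in SP1 (2.20 ± 0.33, adjusted p = 0.00787). Both were picked after their values were seen.

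The number of interferon response genes called depended on single arrays. It was 5, 7 and 12 without SP4 replicate 1, 2 and 3, and 4, 8 and 8 without SP1 replicate 1, 2 and 3. Without SP3 replicate 2 it was 9, and without SP2 replicate 1 it was 11. The members called only with the block include Iigp1 (1.67, adjusted p = 2.3e-05 with the block), Ifit1 (1.44, 0.00042), Irgm2 (1.34, 4.1e-05) and Rsad2 (1.15, 0.0032). Irf3, which is present before any interferon signal, was the 1 member below 0.

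**Figure D3:**
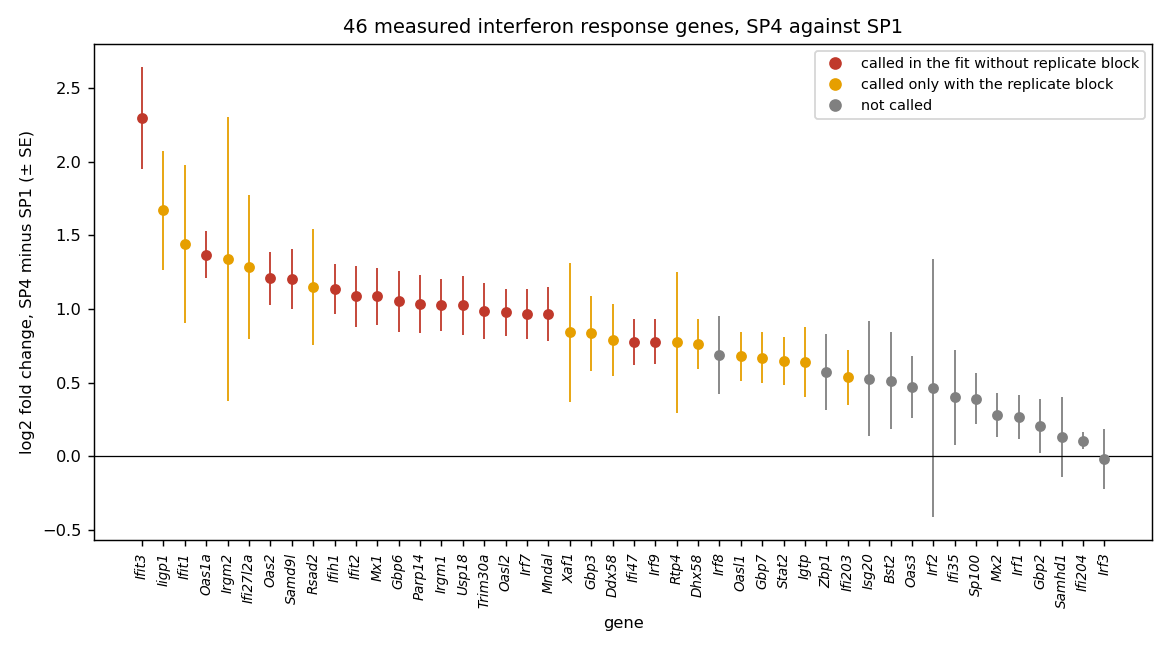
Each point is the log2 fold change, SP4 minus SP1, of 1 of 46 interferon response genes, with its SE as the bar, in order of size. The 17 red genes were called, the orange ones were called only with the replicate block, and Ifit3 at 2.30 is the highest.

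Class I genes were read both by single-gene and by shared probe sets. Among 22 genes for class I molecules and their peptide loading, 2 were higher in SP4 and 0 lower (1.21% and 0.297% of all genes), the peptide transporter Tap1 with 779, 884 and 732 in SP4 and 410, 443 and 447 in SP1 (0.85 ± 0.17, adjusted p = 0.0399), and H2-Q5 at low intensities of 47.1, 48.7 and 66.8 in SP4 and 32.2, 28.4 and 22.9 in SP1 (0.67 ± 0.13, adjusted p = 0.0297). Neither was called without SP4 replicate 2, SP4 replicate 3, any SP1 array or SP2 replicate 1, and 1 was called without SP4 replicate 1, SP3 replicate 2, SP3 replicate 3 or SP2 replicate 3 (adjusted p up to 0.171 for Tap1). With the block 8 were higher (4.16% of all genes), among them the classical genes H2-K1 (0.86, adjusted p = 0.00061) and H2-D1 (0.99, adjusted p = 0.00033), and H2-Q2 was lower (-1.44, adjusted p = 0.00057). B2m, the light chain of all class I molecules, had 7883, 7568 and 7601 in SP4 and 5346, 6366 and 5935 in SP1 (0.39 ± 0.11, adjusted p = 0.159). Of the shared probe sets, that of H2-Q9 and H2-Q7, members of the Qa-2 family used in the sort, differed most (2.50 ± 0.38, adjusted p = 0.0083). That of H2-Q6, H2-Q8 and H2-Q4 had 374, 410 and 426 in SP4 and 135, 192 and 83.3 in SP1 (1.52 ± 0.32, adjusted p = 0.0461). That of H2-T9, H2-T22 and H2-T10, of the nonclassical T region, had 1976, 2174 and 1799 in SP4 and 1246, 1359 and 1076 in SP1 (0.69 ± 0.14, adjusted p = 0.0474). The call of H2-Q6, H2-Q8 and H2-Q4 held without SP1 replicate 2, SP2 replicate 1 or SP2 replicate 3 and ended without any other array (adjusted p up to 0.159), and that of H2-T9, H2-T22 and H2-T10 held only without SP2 replicate 2 (up to 0.205). The probe set shared by H2-K1 and H2-D1 was called only with the block (1.14 ± 0.28, adjusted p = 0.0959, and 0.00022 with the block). Probe sets of class I genes can share targets, so that genes of this family are uncertain. Of 15 GIMAP and Schlafen genes, which act in survival and quiescence of T cells, Gimap3 alone was called (1.21% of all genes were higher), with 1612, 1608 and 1096 in SP4 and 518, 601 and 431 in SP1 (1.44 ± 0.23, adjusted p = 0.0103, and 0.0535 without SP4 replicate 2). With the block 7 were higher (4.16% of all genes), Slfn8 furthest (1.69, adjusted p = 5e-05). Of the 15, 14 were above 0, and for 8 all SP4 arrays lay above all SP1 arrays (7.4% of all genes).

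Genes of effector-like and innate-like T cells were higher in SP4. Of 39 measured genes of innate-like T cells, 11 were higher and 0 lower, with a median of 0.67, and of 32 genes of activated and memory T cells 8 were higher and 0 lower, with a median of 0.73 (1.21% and 0.297% of all genes). With the block 18 and 17 were higher (4.16%), and 1 of the innate-like genes was lower (1.88%). Zbtb16, or PLZF, the factor that directs NKT cell development, had 174, 317 and 301 in SP4, against 36.9, 25.8 and 12.9 in SP1. Tbx21, or T-bet, had 149, 90.3 and 113 in SP4 and 31.4, 28.7 and 19.2 in SP1. The lowest SP4 array was above the highest SP1 array for both (2.77 ± 0.30, adjusted p = 0.00106 for Zbtb16, and 1.64 ± 0.19, adjusted p = 0.00157 for Tbx21). The cytokine Il4 had 70.6, 237 and 536 in SP4 and 17.7, 14.7 and 9.78 in SP1 (2.94 ± 0.53, adjusted p = 0.022), and Ifng had 78.9, 61.6 and 171 in SP4 and 27, 30.6 and 13.5 in SP1 (1.52 ± 0.28, adjusted p = 0.0271). Both cytokines were highest in SP4 replicate 3 and lowest in SP1 replicate 3. Maf, a factor that drives Il4, had 405, 448 and 790 in SP4 and 90.4, 80.8 and 150 in SP1 (2.17 ± 0.43, adjusted p = 0.0361), and Hopx and Ctsw rose by 1.41 ± 0.19 (adjusted p = 0.00479) and 1.42 ± 0.21 (adjusted p = 0.00784). Ahnak, a large scaffold protein high in memory cells, had 292, 367 and 308 in SP4 and 64.2, 79.6 and 36.1 in SP1 (2.19 ± 0.27, adjusted p = 0.00235).

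Il4, Maf and Ifng were the members of these lists that lost their calls most often. Il4 was not called without SP4 replicate 2 or any SP1 array (adjusted p up to 0.0944), Ifng without SP4 replicate 1 or any SP1 array (up to 0.107), and Maf without any SP4 or SP1 array, SP3 replicate 2 or SP2 replicate 1 (up to 0.156). For Maf this is the reading of its brightest probe set. Dimmer probe sets of Maf were called higher at 2.53 ± 0.21 (adjusted p = 0.000174), 1.45 and 1.24, and those at 1.47 and 0.34 were not called. The granule protease Gzma had 420, 608 and 362 in SP4 and 1359, 1238 and 56.3 in SP1, and overlapped. Klrd1 had 349, 271 and 302 in SP4 and 94.8, 138 and 16 in SP1 and was called only with the block (1.98, adjusted p = 0.019).

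In bulk RNA, more cells of a type and more RNA in each cell cannot be told apart. Cd44, which is high on memory cells and was not gated, had 464, 413 and 395 in SP4 and 227, 273 and 222 in SP1 (0.78 ± 0.19, adjusted p = 0.102, and 0.0081 with the block). The probe set shared by Klrb1b and Klrb1c, of which Klrb1c codes for NK1.1, had 94.8, 55.9 and 33 in SP4 and 29.7, 31.8 and 22 in SP1 (0.74 ± 0.25, adjusted p = 0.314, and 0.0143 with the block). Summed over the 39 innate-like genes, intensities were between 9029 and 12074 in SP4 and between 5075 and 7535 in SP1. Over the 32 activated and memory genes they were between 17258 and 23653 in SP4 and between 10576 and 14582 in SP1, and neither sum overlapped between the subsets. This was not particular to these lists. Sums of the egress and naive T cell genes lay apart too, from 56977 to 62915 in SP4 and from 40244 to 44287 in SP1. Those of the costimulation list overlapped, from 16156 to 19865 in SP4 and from 13718 to 19129 in SP1, as did those over all genes. The part of innate-like and memory cells in the other results was not tested.

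Few markers of other cells were called. Of 16 B cell markers 0 were called, with sums from 2182 to 6179 in SP4 and from 1346 to 6608 in SP1. Of 25 myeloid and dendritic markers 0 were called, with sums from 2338 to 4039 in SP4 and from 1277 to 3063 in SP1. With the block 3 of these 25 were higher (4.16% of all genes) and 0 lower (1.88%). For 6 of the 25 all SP4 arrays lay above all SP1 arrays, and for 0 below (7.4% and 6.9% of all genes). The B cell sum was lowest in replicate 3 of both subsets, and of its members Cd74 had 643, 970 and 172 in SP4 and 1196, 1122 and 176 in SP1. Siglech, a marker of plasmacytoid dendritic cells, which are a main source of type I interferon, had 168, 180 and 128 in SP4 and 70.3, 83.8 and 33.3 in SP1 (1.21 ± 0.26, adjusted p = 0.052, and 0.0043 with the block), and Mpeg1 had 497, 574 and 284 in SP4 and 202, 277 and 35.4 in SP1 (adjusted p = 0.274, and 0.029 with the block). Their part in the interferon response genes was not tested. Of 11 gamma-delta T and NK cell markers 2 were higher (1.21% of all genes), Il2rb and Klrb1a, the latter at intensities of 14.2 and below. With the block 3 of the 11 were higher (4.16%). Sums over these 11 ran from 1424 to 2169 in SP4 and from 566 to 2235 in SP1. In 20 epithelial and stromal markers only Ly75 was called (0.79 ± 0.14, adjusted p = 0.0179), where 1.21% of all genes were higher. With the block 2 of the 20 were higher (4.16%). The sums ran from 619 to 901 in SP4 and from 542 to 753 in SP1, and the defining genes Foxn1, Psmb11 and Aire were at 33.8 or below in each of these arrays. No erythroid and platelet marker of 11 was called. Their sums ran from 925 to 1099 in SP4 and from 1205 to 1453 in SP1, and did not overlap. With the block 1 of the 11 was higher (4.16% of all genes) and 1 lower (1.88%).

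Genes of regulatory T cells gave 3 of 20 higher and 0 lower in SP4 (1.21% and 0.297% of all genes), although CD25+ cells had been gated out. Foxp3, their defining factor, had 66.2, 136 and 65.3 in SP4, against 24.8, 23.5 and 13 in SP1. The groups did not overlap (1.48 ± 0.29, adjusted p = 0.0361), but the call ended without SP4 replicate 1 or 2, any SP1 array, SP3 replicate 1 or SP2 replicate 1 (adjusted p up to 0.144). Nt5e, the ecto-enzyme CD73, had 166, 213 and 326 in SP4 and 33.9, 40.8 and 38.1 in SP1 (2.18 ± 0.25, adjusted p = 0.00159), and the third was Itgae, not called without any one SP4 array (adjusted p between 0.051 and 0.0625). Other markers of these cells were not called. Ikzf2 had 972, 1346 and 1071 in SP4 and 1116, 1256 and 1252 in SP1, and Tnfrsf18 had 521, 911 and 1381 in SP4 and 657, 843 and 1924 in SP1. Both overlapped between the subsets. The number of members higher was 1 without SP4 replicate 1 or 2, and 7 with the block (4.16% of all genes), with 1 then lower (1.88%).

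Costimulatory receptors changed in part. Of 36 members of the TNF receptor and CD28 families and their ligands, 4 were higher in SP4 and 0 lower (1.21% and 0.297% of all genes). Tnfsf8, the CD30 ligand, had 118, 111 and 191 in SP4 and 36.3, 45.3 and 46.5 in SP1 (1.38 ± 0.21, adjusted p = 0.00952). Tnfrsf25, or DR3, had 203, 299 and 165 in SP4 and 81.7, 78.6 and 67.3 in SP1 (1.34 ± 0.22, adjusted p = 0.0122). The inhibitory receptor Pdcd1, or PD-1, had 153, 276 and 272 in SP4 and 85.5, 110 and 79.5 in SP1 (1.18 ± 0.25, adjusted p = 0.0458), and Tnfsf14 rose by 0.54 ± 0.10 (adjusted p = 0.0244). Pdcd1 was called without only SP4 replicate 1 or SP2 replicate 3 among the arrays left out (adjusted p up to 0.193). Of the list 1 member was called without SP1 replicate 2 or 3, and 2 without SP4 replicate 2, SP4 replicate 3 or SP1 replicate 1. Cd28 itself had 1774, 1562 and 1604 in SP4 and 1930, 2113 and 1890 in SP1 (-0.26 ± 0.15, adjusted p = 0.795). With the block 12 were higher (4.16% of all genes), Ctla4 (1.21, adjusted p = 0.003) and Icos (1.10, adjusted p = 0.0012) among them, and 3 lower (1.88%), Slamf1, Tnfsf11 and Tnfrsf9.

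Genes that follow the signal of the T cell receptor fell in 2 cases and rose in 0 of 55 (0.297% and 1.21% of all genes). With the block 9 were lower (1.88%) and 7 higher (4.16%). Itm2a, a membrane protein induced at positive selection, had 3437, 4052 and 3335 in SP4, against 8090, 8387 and 7636 in SP1. The phosphatase Dusp5, which turns off ERK, had 980, 655 and 1245 in SP4 and 2058, 1738 and 2419 in SP1. Itm2a stayed called with each array left out (-1.16 ± 0.16, adjusted p = 0.00473), while Dusp5 was called only without SP4 replicate 3 (-1.13 ± 0.23, adjusted p = 0.0422, up to 0.164), and the number lower was 3 without that array and 1 without any other. Nr4a1, or Nur77, the reporter of receptor signal strength, had 1060, 877 and 1784 in SP4 and 2466, 2444 and 3688 in SP1. Replicate 3 was highest in both groups, the groups did not overlap, and its adjusted p was 0.0868 without the block and 0.00022 with it (-1.24 ± 0.29). Nr4a2 (-1.03), Bcl2l11 (-1.08), Gadd45a (-0.72), Tox (-0.97) and Tox2 (-0.91) were called lower with the block, and Egr3 (0.84), Myc (0.81), Irf4 (1.19) and Bhlhe40 (1.05) higher, so that members of the list moved in both directions. Egr1 had 1033, 1359 and 1526 in SP4 and 961, 1191 and 1205 in SP1 and was not called in either fit. The surface regulator of receptor signalling Cd5 had 2184, 2247 and 1648 in SP4 and 2098, 2377 and 2117 in SP1 (-0.13 ± 0.18).

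In the signalling chain below the receptor, 4 of 37 genes were higher in SP4 and 0 lower (1.21% and 0.297% of all genes), and 7 were higher with the block (4.16%). The lipid kinase Dgka, which removes diacylglycerol and so dampens Ras, had 3954, 3232 and 2527 in SP4 and 1419, 1743 and 1392 in SP1 (1.07 ± 0.20, adjusted p = 0.0272). Ptpn22 and Ubash3b, phosphatases that act against receptor signalling, rose by 1.08 ± 0.21 (adjusted p = 0.0342) and 1.11 ± 0.19 (adjusted p = 0.0148). So 3 of the 4 are negative regulators by their known role, and the fourth, the kinase subunit Pik3cd, is not (1.17 ± 0.24, adjusted p = 0.0458). The list holds other negative regulators that were not called, among them Ptpn6, Csk, Cblb, Dgkz and Ubash3a. The share among the 4 thus describes these genes and no more. Of these 4, 0 were called without SP1 replicate 1 or 2, and 1 without SP4 replicate 1, SP4 replicate 2, SP1 replicate 3 or SP2 replicate 1. In the NF-kB list Traf5 was the 1 of 22 called (1.21% of all genes were higher), with 182, 210 and 188 in SP4 and 69.4, 84.3 and 76.5 in SP1 (1.17 ± 0.14, adjusted p = 0.00236). With the block 4 of the 22 were higher (4.16%). Of 25 BCL2 family and death receptor genes 0 were called without the block. With it 2 were higher (4.16% of all genes) and 3 lower (1.88%), Bcl2l11 among the lower ones. Bcl2 had 930, 1185 and 1188 in SP4 and 1145, 1312 and 2175 in SP1.

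Genes of double positive (DP) thymocytes, the stage before SP1, were lower or level. Of 33 measured, 0 were higher in SP4 and 3 lower (0.297% of all genes), with a median of -0.37, and 6 were lower with the block (1.88%). The 3 were Ccr9, Lztfl1 and Cd24a. Cd24a, the heat-stable antigen by which immature thymocytes are known, had 819, 698 and 883 in SP4, against 2545, 2579 and 2359 in SP1. Its replicates lay close together in both subsets (-1.63 ± 0.19, adjusted p = 0.00196). Lztfl1, a regulator of transport into cilia in other cells, had 218, 298 and 311 in SP4 and 716, 1030 and 1203 in SP1 (-1.76 ± 0.24, adjusted p = 0.00515). Sox4, Ephb6 and Satb1 were lower with the block, Sox4 with 1548, 1521 and 2157 in SP4 and 2946, 3027 and 4165 in SP1 (-0.95 ± 0.20, adjusted p = 0.0527, and 0.00078 with the block).

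The most specific DP genes varied between replicates more than between subsets. Rag1, of the recombinase that rearranges receptor genes, had 652, 669 and 123 in SP4 and 1258, 1111 and 20 in SP1. Cd8a had 358, 247 and 16.3 in SP4 and 765, 1083 and 55.5 in SP1, and Dntt had 1003, 978 and 207 in SP4 and 2315, 2037 and 160 in SP1. All 3 were low in replicate 3 of both subsets and higher in SP1 than in SP4 in replicates 1 and 2. None was called in either fit. Transcripts of the CD8 chain were thus present in arrays of cells sorted as CD8-, and the part of DP transcripts in the other falls was not tested. In fits without replicate 3 of every subset, 4 genes of the list were lower, against 3 in all arrays.

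Among the genes of largest fall, those of other roles made up the greater part. F13a1, the enzymatic chain of clotting factor XIII, had 52.7, 77 and 68.2 in SP4 and 258, 351 and 579 in SP1 (-2.27 ± 0.31, adjusted p = 0.00439). Zcchc12 had 82, 126 and 161 in SP4 and 367, 503 and 725 in SP1 (-1.97 ± 0.30, adjusted p = 0.00865), and Asb2, which selects targets of a ubiquitin ligase, had 32.7, 27.4 and 26.1 in SP4 and 107, 152 and 194 in SP1 (-1.87 ± 0.21, adjusted p = 0.00159). For all of them SP1 replicate 3 was the highest array. Marcks, an actin-binding target of protein kinase C, had 247, 250 and 222 in SP4 and 684, 696 and 771 in SP1 (-1.52 ± 0.20, adjusted p = 0.00363). Nedd4, a ubiquitin ligase, had 299, 262 and 176 in SP4 and 695, 763 and 727 in SP1 (-1.54 ± 0.27, adjusted p = 0.0176), and Hivep3, a zinc finger factor, had 686, 757 and 911 in SP4 and 1925, 1470 and 2550 in SP1 (-1.29 ± 0.21, adjusted p = 0.0111). Smo, the signal transducer of the Hedgehog pathway, had 115, 106 and 110 in SP4 and 269, 249 and 350 in SP1 (-1.26 ± 0.21, adjusted p = 0.0153).

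Enzymes made up another part of the falls. Ldhb, a lactate dehydrogenase chain, had 264, 486 and 380 in SP4 and 813, 1111 and 1069 in SP1 (-1.39 ± 0.22, adjusted p = 0.00976). It was the 1 of 17 genes of glycolysis and sugar transport that was called (0.297% of all genes were lower), and with the block 3 were lower (1.88%). Aldh7a1, an aldehyde dehydrogenase, had 74.5, 93.5 and 96.7 in SP4 and 264, 277 and 240 in SP1 (-1.41 ± 0.19, adjusted p = 0.00413). Hacd1 and Acot7, of fatty acid metabolism, fell by 1.72 and 1.19, and the methyltransferase Lcmt1 by 1.31. C1qtnf12 fell by 1.65, Zfp821 by 1.42, Armcx6 by 1.26 and the actin-binding calponin Cnn3 by 1.19, all on the log2 scale. Of the genes in this and the preceding paragraph, Hacd1 and Cnn3 lost their calls without any of 9 arrays (any of SP4 and SP1, SP3 replicate 1 or 2, or SP2 replicate 1, adjusted p up to 0.158), and Acot7 without any of the 6 (up to 0.118). Nedd4 did so without SP4 replicate 2 or 3 or any SP1 array, Smo without SP4 replicate 1 or 2 or SP1 replicate 1 or 3, and Hivep3 without SP4 replicate 1 or 2 or SP1 replicate 1 (up to 0.0835). C1qtnf12 and Zfp821 were not called without SP4 replicate 1, nor Ldhb without SP1 replicate 2 (up to 0.0585).

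In lists of cell division, metabolism and structure few genes were called. Of 40 cell cycle and DNA replication genes 0 were called, with a median of -0.06, and Mki67, the proliferation marker, had 1604, 1479 and 954 in SP4 and 1485, 1559 and 349 in SP1. Of 12 housekeeping genes 0 were called (median -0.01). In cholesterol synthesis and uptake 18 of 24 genes were below 0, with a median of -0.20, and for 5 of them all SP4 arrays lay below all SP1 arrays (6.9% of all genes). None was called lower (0.297% of all genes), and 1 was higher (1.21%), the exporter Abca1, with 446, 550 and 431 in SP4 and 167, 194 and 175 in SP1 (1.33 ± 0.24, adjusted p = 0.021), not called without SP4 replicate 1 or 2 or any SP1 array (up to 0.104). Of 24 annexins, S100 proteins and galectins, Ahnak alone was called (1.21% of all genes were higher), and without SP4 replicate 1 there were 4. With the block 7 of the 24 were higher (4.16% of all genes) and 1 lower (1.88%). T lineage transcription factors, by contrast, gave 5 of 44 higher and 0 lower (1.21% and 0.297% of all genes), Zbtb16, Maf, Klf2, Klf3 and Tbx21, with 10 higher and 4 lower under the block (4.16% and 1.88%). Of all 274 called genes, 197 were in no list.

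**Figure D4:**
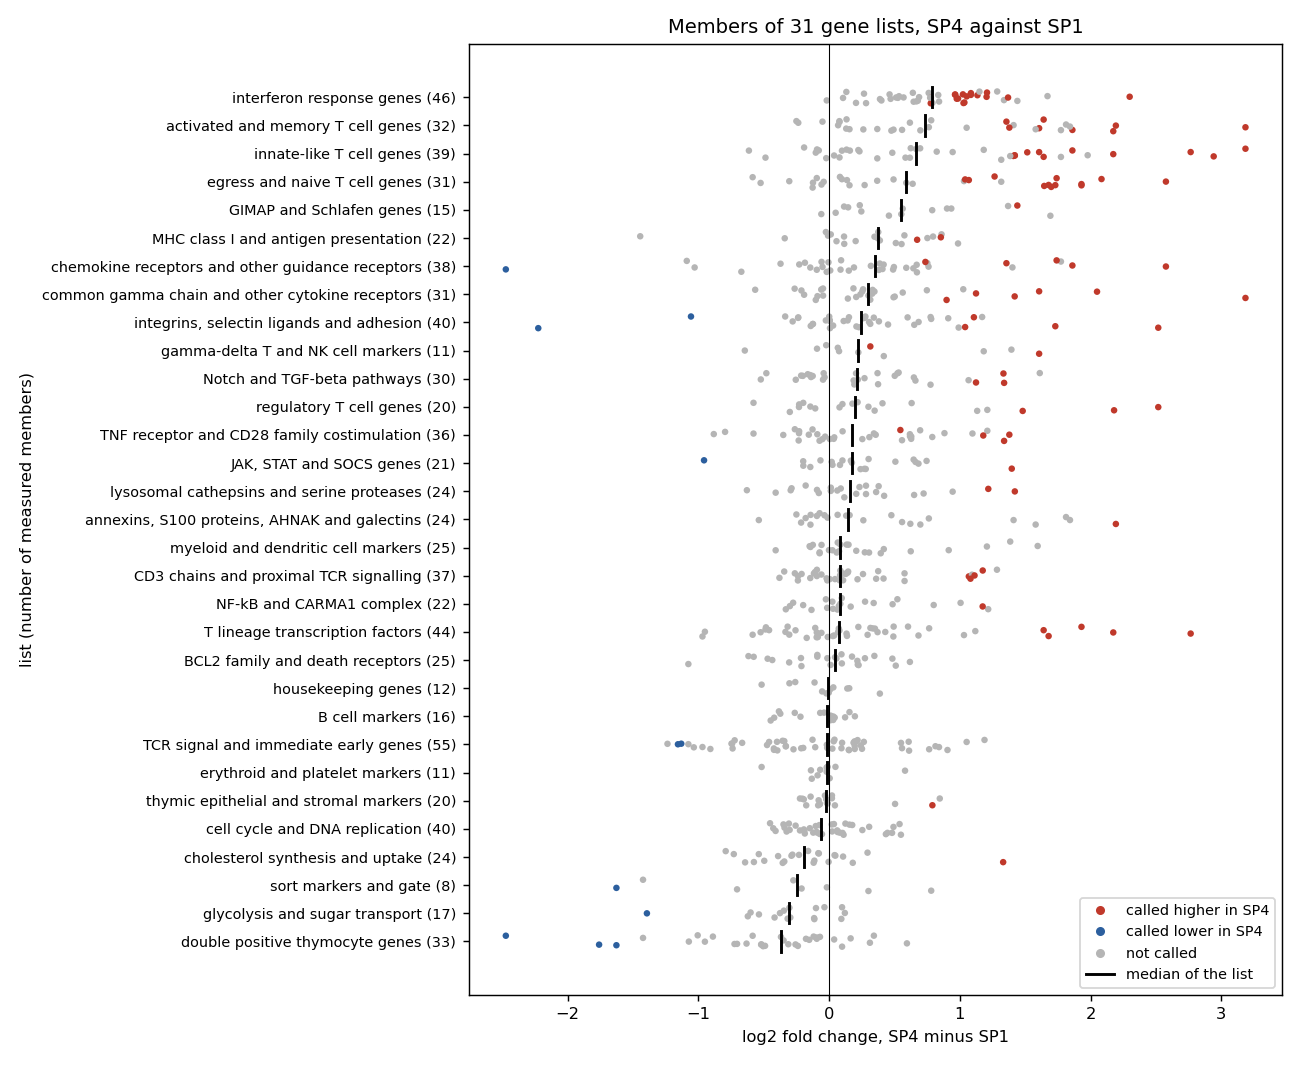
Each dot is the log2 fold change, SP4 minus SP1, of 1 gene of 31 lists, red where called higher, blue where called lower and grey where not called, with the median of each list as a black bar. Lists run from the interferon response genes (median 0.78) at the top to the DP thymocyte genes (-0.37) at the bottom.

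The means of the subsets between them showed when each group had moved. The steps below share arrays with the comparison that chose the genes and are given as a description. Of the 220 genes called higher, 157 had their largest step between SP3 and SP4, 23 between SP2 and SP3 and 40 between SP1 and SP2. Of the 54 called lower, 34, 14 and 6 had it there. All 11 innate-like genes that were called had their largest step between SP3 and SP4, with median steps of -0.08 from SP1 to SP2, 0.37 from SP2 to SP3 and 1.59 from SP3 to SP4 on the log2 scale. Il18r1 for instance averaged 59.7, 35.9, 153 and 660 along the series SP1 to SP4. The 12 egress and naive genes were spread over the steps, with medians of 0.49, 0.64 and 0.57, and 10 of them rose at each step. Among them Igfbp4 had means of 1012.5, 1959, 3230 and 4341 from SP1 to SP4, while S1pr1 had 153, 191, 604 and 966. The 17 interferon response genes had their largest step early in 9 cases and late in 8, with medians of 0.49, 0.03 and 0.52. Of the genes that fell, Ccr9 averaged 1839, 1346, 1273 and 324 along the same series, and Cd24a had 2494, 1605, 1932 and 800.

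**Figure D5:**
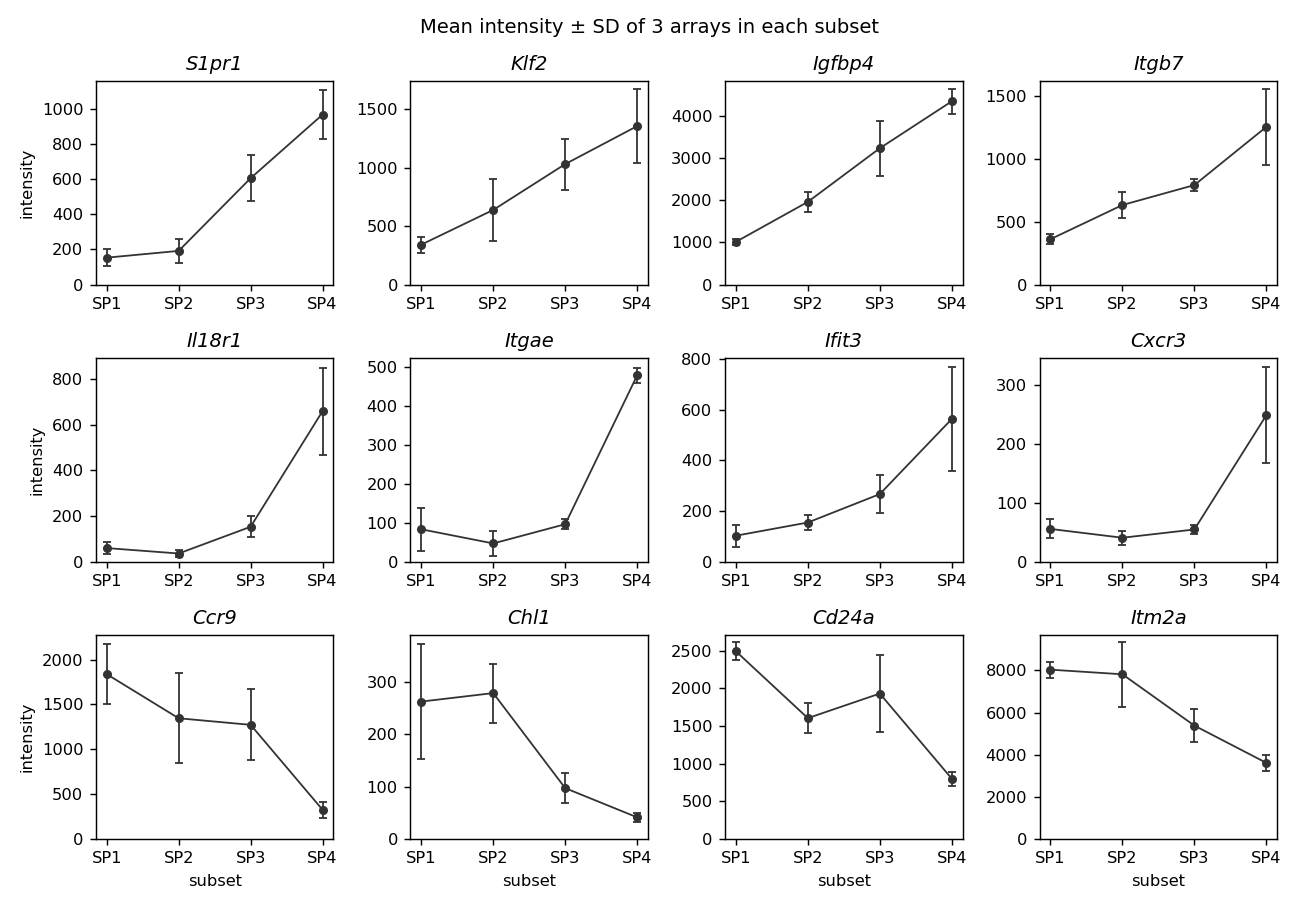
Points are mean intensities of 3 arrays with SD bars, in the order SP1, SP2, SP3 and SP4, for 12 genes on linear axes that start at 0. Igfbp4 climbs at each step, Il18r1, Itgae and Cxcr3 climb mainly between SP3 and SP4, and Ccr9 drops there to a mean of 324.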

How the data were processed

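RNA of 12 sorted samples was hybridised to Affymetrix mouse 430 2.0 arrays, 3 biological replicates for each of SP1 to SP4, from pooled thymi. The deposited table gives linear intensity values, background-corrected and normalized by the authors. The methods name RMA and the submitters' processing notes name MAS5, with versions not given in the sources used here, so that the algorithm is uncertain, and the values are linear with no log taken. Scanner images were not used here.

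From these values log2(intensity + 16) was fitted with limma 3.58.1 in R 4.3.3, with 1 mean for each subset over all 12 arrays (8 residual degrees of freedom), empirical Bayes moderation with a trend on the mean, and Benjamini-Hochberg adjustment over all 45037 probe sets. The offset of 16 shrinks the fold of dim genes. The platform annotation gave 34945 probe sets 1 gene, 932 several and 9160 none, and 18193 genes were read by the probe set of highest mean. The p-values set each difference against the spread between arrays of the same subset. In the fit without the block that spread includes the deviation of replicate 3.

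Named genes are the 30 of largest rise and the 20 of largest fall among those called at over 2-fold, with a mean of at least 100 in the higher subset and the same direction in 3 of 3 same-numbered pairs, and members of 31 gene lists. The members and lists were chosen with earlier results of these data known.

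The replicate numbers come from the sample titles, and were taken to pair the arrays because same-numbered arrays deviated together from their subset means. The paper's figure captions also label 3 array repeats, each with SP1 to SP4. The titles do not say which number belongs to which of those repeats. The correlation was above 0.1 for all 18 such pairs (0.28 to 0.88), and between 0.64 and 0.81 for SP4 and SP1. Replicates 1 and 2 also correlated with each other across subsets (0.18 to 0.73 over 12 pairs), at times above their own number, while replicate 3 correlated negatively with both (-0.81 to -0.39). Because deviations were taken from the mean of the same arrays, negative values between numbers are in part set by the calculation. The positive values between replicates 1 and 2 can arise from it too. A shift of replicate 3 in every subset leaves both with a deviation of the opposite sign. These correlations therefore mainly set replicate 3 apart, and do not settle whether replicates 1 and 2 differ. The fit with the number as a block (6 residual degrees of freedom) is an alternative. The others were an offset of 1 or 64, quantile normalization or scaling to one median, only probe sets with an intensity of at least 50 in 3 or more arrays, no trend, the mean of a gene's probe sets, only the 6 arrays of SP4 and SP1, no replicate 3, and each array left out in turn.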

Additional observations from a re-analysis of the deposited data

How the results depend on the processing

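None of the 50 genes of largest change reversed its direction under any alternative run, and the direction of the other genes was not followed through the alternatives. With the replicate block, 389 probe sets were higher and 113 lower in SP4 by more than 2-fold, and 756 genes were higher and 342 lower, and none of the 50 named genes lost its call. In the fit of only the SP4 and SP1 arrays, which has 4 residual degrees of freedom, these counts were 83, 14, 51 and 9, and 24 of the 50 named genes lost their calls. An offset of 64, which shrinks dim genes further, gave 138 probe sets higher and 37 lower. Without replicate 3 of every subset 90 probe sets and 83 genes were lower, and by the mean of all probe sets of a gene 82 genes were lower. The cause of these shifts was not tested. With single arrays left out, the probe sets higher numbered from 151 to 250 and those lower from 28 to 57, the genes higher from 102 to 211 and those lower from 18 to 51. Of the named genes, 21 of 30 that rose and 11 of 20 that fell were called with each of the 12 arrays left out. Quantile normalization, median scaling, the filter on dim probe sets, an offset of 1 and a fit without the trend kept all 4 counts within 1.5 times.

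Affymetrix intensities carry no read depth, and 3 arrays a subset limit the precision. Genes near the background have folds shrunk by the offset, and an adjusted p above the threshold does not show that a gene was equal in both subsets.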
